A study of Mus musculus with 12 samples.

Results

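AML246 cells, a mouse acute myeloid leukemia, were compared between day 6 of doxycycline (Dox) and no treatment. The comparison used 6 of the 12 libraries of the series, chosen by their titles: 3 of untreated cells and 3 of cells taken at day 6 of Dox. All cells came from the bone marrow of leukemic C57BL/6 recipients, lacked p53 and carried a short hairpin against PU.1 that is linked to GFP and is shut off by Dox. The untreated cells were sorted as GFPhigh and the day 6 cells as GFPlow, so what the gate selects and what Dox does over the 6 days cannot be told apart. Every library came from the same leukemia, and no Dox-treated cells without the hairpin are among them, so Dox itself and the return of PU.1 cannot be told apart either. The sample titles call the replicates technical, whereas the design text refers to mice in triplicate. The p-values therefore cover no more than the spread among the libraries of a group, and that spread may be technical. In bulk RNA, fewer cells of a type and less RNA per cell cannot be told apart.

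PU.1, encoded by Spi1, is an ETS-family transcription factor that myeloid cells need to mature, and it binds purine-rich DNA with a GGAA core. Granulocytes mature in stages. Promyelocytes make the proteins of primary (azurophilic) granules, such as myeloperoxidase and elastase. Later precursors make secondary and tertiary granule proteins and stop dividing along the way. The mature neutrophil carries chemotaxis receptors and the oxidase that kills microbes. Monocytes and macrophages arise from a shared progenitor and also depend on PU.1.

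The target of the hairpin checked the labels. Spi1 (gene ID 20375, chromosome 2, 91082374 to 91115759, mm10) stood at 54.2, 67.5 and 65.9 CPM (library-size normalised read counts, scaled by the TMM method) in untreated replicates 1, 2 and 3. At day 6 it stood at 497.3, 439.4 and 437.7 CPM in the same order, which is kept for all sets of 3 values below. The groups did not overlap, and the mean was 7.33-fold higher at day 6 (log2 fold change 2.87 ± 0.12, SE; edgeR quasi-likelihood adjusted p = 2.79e-09; exact two-sided permutation p = 0.1, the smallest that 3 against 3 libraries allow). Trp53, which encodes p53, had 41.8, 45.0 and 41.5 CPM in untreated cells and 16.0, 14.0 and 17.2 CPM at day 6 (log2 fold change -1.45, edgeR adjusted p = 4.57e-07, exact permutation p = 0.1). Reads were summed over all exons of Trp53, so a deletion of some of them is not checked here.

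The libraries held 6157782 to 7356166 counts. Against these totals, before TMM scaling, 3 counts correspond to 0.408 to 0.487 CPM in these 6 libraries. The CPM values in the text rest on effective library sizes after TMM scaling, which were 4689249 to 7183729. On that scale 3 counts give a lower CPM in untreated libraries and a higher CPM in day 6 libraries than before scaling. Counting intervals and floors given below cover counting error only. Day 6 replicate 2 stood apart from the other day 6 libraries. Its counts differed from replicates 1 and 3 with 42.5 and 37.1 times the variance of counting error, against 4.62 between replicates 1 and 3 and 5.91 to 10.2 between untreated libraries. In it 1057 genes were at least 2-fold away from the mean of the other day 6 libraries, compared with 492 and 398 genes for replicates 1 and 3. The root mean square log2 distance to a day 4 library, averaged over the day 4 libraries, was 0.772 in replicate 2, 1.02 in replicate 1 and 0.974 in replicate 3. For some lists and genes that rest on this library, values without it are given as well.

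About 2 in 3 measured genes differed between day 6 and untreated cells. Of 12057 genes tested, 4224 (35.0%) were higher at day 6 and 3967 (32.9%) were lower at an adjusted p under 0.05, here called higher or lower, and 3866 were not called. At least 2-fold changes numbered 2032 higher (16.9%) and 1837 lower (15.2%). At least 8-fold changes numbered 495 higher and 279 lower. The 3 day 6 libraries lay wholly above or wholly below the 3 untreated libraries for 8222 genes (68.2%). Fold changes are set relative to TMM scaling, under which the median log2 fold change of all genes was 0.00 and the middle 50% of genes lay between -0.62 and 0.65. Under upper-quartile scaling that median was -0.25 and under library totals -0.52, and the higher genes made up 37.3% and 25.2% of calls instead of 51.6%. Small changes of either sign depend on that choice, and list medians that change sign with it are named where they occur.

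**Figure D1:**
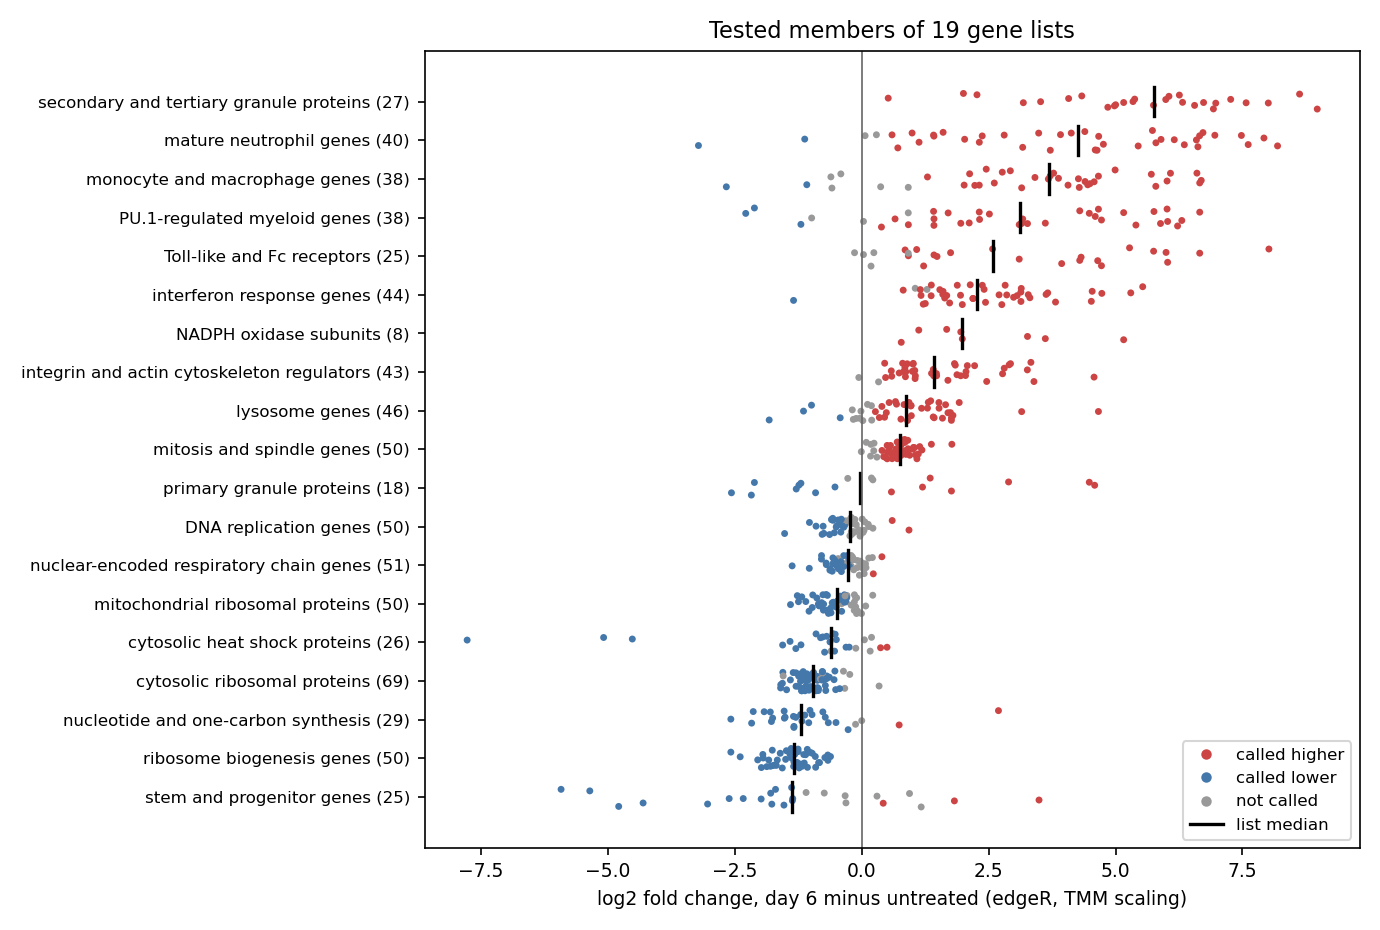
Each point is a tested gene of 1 of 19 lists, with the number tested in brackets, placed by its log2 fold change at day 6 against untreated cells (red higher, blue lower, grey not called); the black bar is the list median. Granule, neutrophil and monocyte lists lie far to the right, with medians of 5.75, 4.26 and 3.69 for secondary and tertiary granule, mature neutrophil and monocyte genes, while ribosome biogenesis genes lie wholly to the left of 0.

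Genes for the proteins of secondary and tertiary neutrophil granules rose together and came to hold a large part of the RNA. All 27 tested members of that list were higher at day 6, with a median log2 fold change of 5.75 against 0.00 for all genes. The list summed to 2676, 3510 and 3319 CPM in untreated cells and to 127100, 71420 and 112200 CPM at day 6. The lowest sum at day 6 was that of replicate 2.

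Several members of that list bind iron, kill bacteria or digest matrix. Ltf, encoding the iron-binding protein lactoferrin (gene ID 17002, chromosome 9, 111019292 to 111042766), rose from 44.8, 134.9 and 51.6 CPM to 12760, 5327 and 10090 CPM, 122-fold (log2 fold change 6.93 ± 0.59, SE; edgeR adjusted p = 2.53e-06). Ngp, neutrophilic granule protein, rose from 94.6, 291.4 and 129.7 CPM to 36470, 13720 and 29290 CPM. In both genes untreated replicate 2 was the highest of its group and day 6 replicate 2 the lowest, and the groups stayed far apart. Camp, the precursor of the antimicrobial peptide cathelicidin, went from 123.7, 326.3 and 156.5 CPM to 7709, 3968 and 7444 CPM, a 31.5-fold rise. Lcn2, lipocalin-2, which sequesters bacterial siderophores, went from 81.4, 133.8 and 133.2 CPM to 7522, 4566 and 6633 CPM. Both kept the order of the libraries seen for Ltf at day 6. The granule proteases Mmp8 and Mmp9 rose 76.5-fold and 126-fold, and here replicate 2 did not stand apart. Mmp8, neutrophil collagenase, had 19.7, 35.4 and 29.3 CPM before and 2112, 2059 and 2287 CPM at day 6 (edgeR adjusted p = 6.5e-09). Mmp9, gelatinase B, had 10.8, 34.0 and 18.3 CPM before and 2545, 2431 and 2957 CPM at day 6. Chil3, a chitinase-like secreted protein, rose 190-fold to 12410, 14150 and 11150 CPM, and Olfm4, olfactomedin 4, a glycoprotein of a subset of neutrophil granules, rose 79.9-fold to 23380, 9970 and 22480 CPM.

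Primary granule genes moved both ways. Of 18 tested members 7 were higher, 8 lower and 3 not called (median log2 fold change -0.04). These counts lie near the shares of all genes (35.0% higher, 32.9% lower), so the split does not set the list apart. Mpo, Ctsg, Elane and Prtn3 fell and Lyz2 and Prss57 rose. Mpo, myeloperoxidase (gene ID 17523, chromosome 11, 87793784 to 87804412), fell from 17950, 19270 and 16900 CPM to 3931, 3918 and 4660 CPM, a 4.33-fold drop (edgeR adjusted p = 1.86e-07). Ctsg, cathepsin G, fell 5.92-fold, from 4058, 4478 and 4399 CPM to 618.9, 828.1 and 738.7 CPM. Each group was tight and the 2 did not overlap in either gene. Elane, neutrophil elastase, fell from 4771, 5682 and 4763 CPM to 2170, 1692 and 2772 CPM, and Prtn3, proteinase 3, from 1590, 2295 and 1745 CPM to 946.4, 966.2 and 1087 CPM. Srgn, the proteoglycan core that packs granule proteases, fell 2.44-fold. Lyz2, lysozyme, which is kept in all granule types, went the other way, from 913.7, 1053 and 1294 CPM to 29040, 18940 and 24940 CPM, 22.4-fold. Prss57, neutrophil serine protease 4, rose 24.4-fold from 0.993, 2.09 and 1.87 CPM to 43.1, 32.8 and 44.9 CPM. With Lyz2 in it, the sum of the list was 35500 to 39620 CPM in untreated cells and 32020 to 42000 CPM at day 6, so the groups overlapped.

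**Figure D2:**
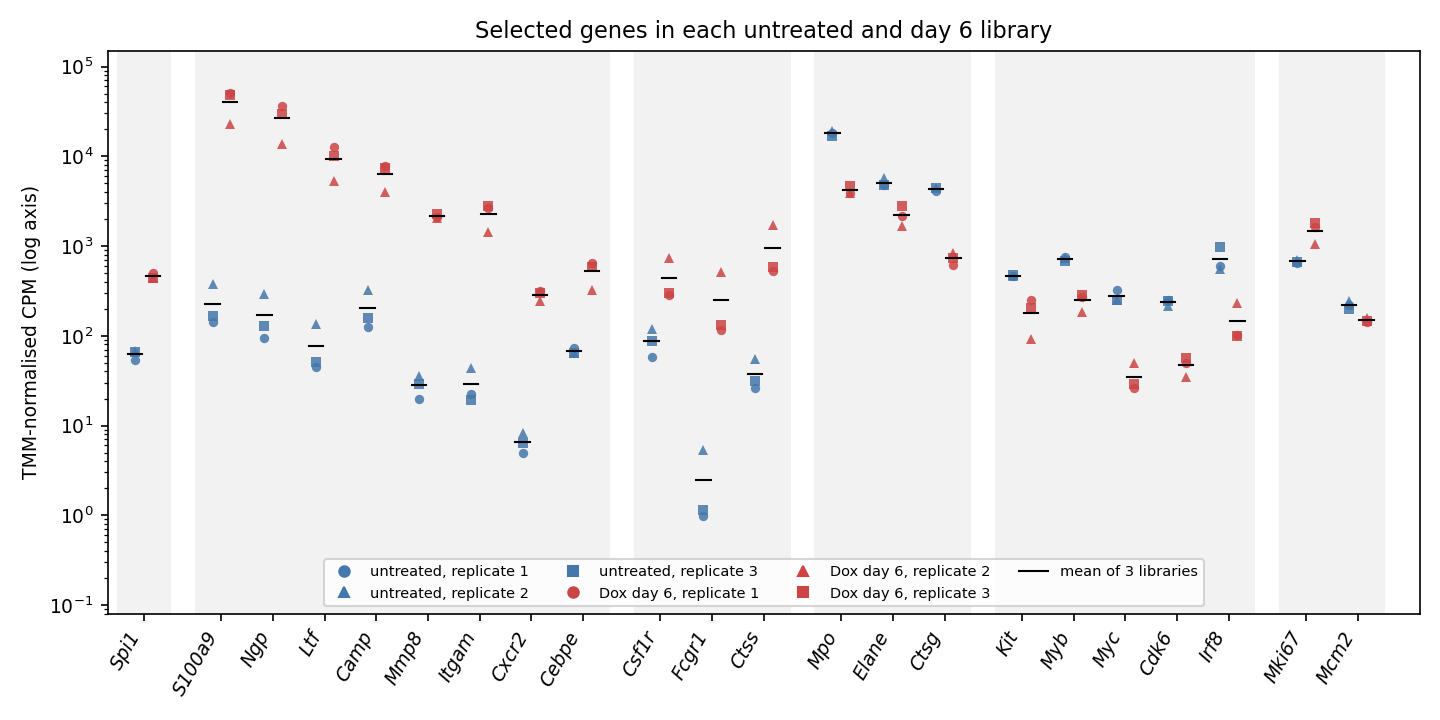
TMM-normalised CPM on a log axis of 22 genes in each library (blue untreated, red day 6; circle, triangle and square for replicates 1, 2 and 3; black line, mean of 3). Granule and neutrophil genes at the left rise with untreated and day 6 points well apart, while Mpo, Elane, Ctsg, Kit, Myb, Myc, Cdk6 and Irf8 fall; the day 6 triangle lies below the other day 6 points for S100a9, Ngp and Ltf and above them for Csf1r, Fcgr1 and Ctss.

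Promoters of genes in both directions held the PU.1-type core. Promoter sequences from RefSeq (GRCm38.p6) were found for 9399 of the 12057 tested genes, and the 250 bases before each start were searched on both strands for GAGGAAGT, for GGAAGTG and for the shorter GAGGAA, which is part of GAGGAAGT. GAGGAAGT lay in 3.21% of all promoters searched, in 4.5% of those of higher genes, 2.48% of lower genes and 2.52% of genes not called. Among genes at least 8-fold higher the share was 8.59% (33 of 384) and among those at least 8-fold lower 0.939% (2 of 213). GAGGAA lay in 25.9% of all, 44.5% of the at least 8-fold higher and 25.8% of the at least 8-fold lower genes. Among the largest changes GGAAGTG did not follow that order (12.5% of at least 8-fold higher and 9.39% of at least 8-fold lower genes). It lay in 14.0% of all, 15.3% of higher, 12.7% of lower and 13.9% of genes not called. Either GAGGAAGT or GGAAGTG lay in 15.5% of all, 17.5% of higher, 13.8% of lower and 14.9% of genes not called. For that pair the shares were 18.2% of at least 8-fold higher and 9.86% of at least 8-fold lower genes. These shares are a description, a match is not a binding site, and no binding was measured here. The windows below are shown because they hold GAGGAAGT or its reverse complement ACTTCCTC within genes that carry the granule and receptor results; the motif is in capitals, with 30 bases on each side where the searched region allows, and each is written 5′ to 3′ on the strand of its gene. In Prtn3 and S100a8 the capitals also hold GGAAGTG or its reverse complement, which overlaps the longer motif. The genes that fell come first.
Mpo, chr11:87793534-87793597, plus strand: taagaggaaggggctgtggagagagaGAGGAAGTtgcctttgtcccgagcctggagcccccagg
Elane, chr10:79886197-79886264, plus strand: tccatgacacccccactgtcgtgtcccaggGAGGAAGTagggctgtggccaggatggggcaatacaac
Prtn3, chr10:79879542-79879610, plus strand: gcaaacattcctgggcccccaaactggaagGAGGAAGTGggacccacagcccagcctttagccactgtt
The next 5 genes rose.
Mmp8, chr9:7558179-7558245, plus strand: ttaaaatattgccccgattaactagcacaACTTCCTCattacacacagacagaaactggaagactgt
Olfm4, chr14:80000191-80000258, plus strand: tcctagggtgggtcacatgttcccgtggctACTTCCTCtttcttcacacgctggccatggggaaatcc
S100a8, chr3:90668868-90668936, plus strand: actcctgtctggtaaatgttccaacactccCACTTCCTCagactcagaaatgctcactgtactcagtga
Ly6g, chr15:75155200-75155267, plus strand: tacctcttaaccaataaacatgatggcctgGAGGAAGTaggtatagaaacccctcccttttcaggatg
Pirb, chr7:3720465-3720532, minus strand: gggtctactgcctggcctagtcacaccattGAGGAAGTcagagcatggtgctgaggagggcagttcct

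Between the motif and the annotated start lay 77 bases in Elane and 216 in Mpo. In the genes that rose they were 73 in Olfm4, 213 in Mmp8, 112 in Pirb and 91 to the later of 2 annotated starts in Ly6g. So the same letters stood before genes that fell and before genes that rose.

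Genes of the mature neutrophil rose with the late granule genes. Of 40 tested members of that list 36 were higher, 2 lower (Clec4d and Ifitm1) and 2 not called, with a median log2 fold change of 4.26. The list shares genes with others, so its calls are not independent of theirs. Its sum rose from 3200, 3995 and 3630 CPM to 87280, 45650 and 80380 CPM.

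The calcium-binding pair S100a8 and S100a9, which form calprotectin, dominated that sum. S100a9 (gene ID 20202, chromosome 3, 90692630 to 90695721) rose 178.4-fold, from 143.1, 377.4 and 165.2 CPM to 51180, 22980 and 48190 CPM (log2 fold change 7.48 ± 0.72, SE; edgeR adjusted p = 6.46e-06). It had the highest length-scaled mean of the genes called higher at day 6, 83570 RPKM (CPM per kilobase of gene length) against 468 RPKM in untreated cells. In untreated cells Mpo had the highest length-scaled mean among lower genes, 7085 RPKM, and at day 6 it had 1638 RPKM. S100a9 alone took 3.77%, 1.94% and 3.61% of the counts of the day 6 libraries, and the 10 most abundant genes took 15.6%, 9.63% and 14.2%, against 5.86% to 6.18% in untreated cells.

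Surface receptors of neutrophils rose, some from a few CPM and some from higher levels. Ly6g, the antigen used to sort mouse neutrophils, went from 0.425, 2.23 and 0.862 CPM to 69.3, 56.1 and 65.0 CPM. Cxcr2, the chemokine receptor that releases neutrophils from marrow (gene ID 12765, chromosome 1, 74153994 to 74161246), rose from 4.96, 8.21 and 6.47 CPM to 315.6, 242.9 and 301.8 CPM, 43.8-fold (edgeR adjusted p = 1.19e-08). The formyl peptide receptor Fpr2 rose from 1.70, 4.04 and 1.58 CPM to 249.1, 235 and 245.8 CPM, and Fpr1 rose 103-fold. In Ly6g, Cxcr2 and Fpr2 all 3 day 6 libraries lay within a narrow band and far above the untreated ones. Itgam, the integrin subunit CD11b, rose from 22.7, 44.3 and 19.3 CPM to 2630, 1432 and 2766 CPM. Csf3r, the receptor for the granulocyte growth factor G-CSF, was already present at 261.6, 258.9 and 300.5 CPM and rose 2.67-fold. Cxcr4, which holds granulocytes in the marrow, also rose, 2.22-fold. Padi4, which citrullinates histones in neutrophils, rose 55.7-fold to 665.6, 387 and 600.7 CPM.

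The machinery of phagocytes rose as a block. All 8 tested subunits of the NADPH oxidase were higher (median log2 fold change 1.97), as were 41 of 43 integrin and actin regulators (1.42, none lower), 24 of 29 adhesion and chemotaxis receptors (2.71, 3 lower) and 31 of 39 tyrosine kinase and adaptor genes (1.44, with Gab2 lower). Cybb, the membrane subunit gp91phox, rose from 77.3, 152.6 and 89.4 CPM to 4170, 2635 and 4616 CPM, and its cytosolic partner Ncf1 (p47phox) from 194.7, 230.7 and 254.6 CPM to 3300, 2062 and 2982 CPM. Replicate 2 was the lowest day 6 library for both, and the summed oxidase genes stood at 1611 to 1859 CPM in untreated cells and 8462 to 12680 CPM at day 6. Vcl, vinculin, rose 10.5-fold, Coro1a, coronin 1A, 10.1-fold, and Actb, beta-actin, from 2122, 2309 and 2202 CPM to 9440, 8826 and 9792 CPM. Fgr, a Src-family kinase that signals below integrins and Fc receptors, rose 75.2-fold, from 4.25, 7.24 and 3.45 CPM to 392.2, 322.4 and 408.2 CPM. Tyrobp, the adaptor DAP12, rose from 36.3, 36.5 and 31.5 CPM to 725.5, 701.1 and 620.6 CPM (edgeR adjusted p = 6.25e-10). Pik3r5, a regulatory subunit of the phosphoinositide kinase used by chemokine receptors, rose 77.0-fold to 129.4, 129.1 and 132.2 CPM. The 6 libraries formed 2 tight sets for both Tyrobp and Pik3r5. Ptprc, the leukocyte phosphatase CD45, rose from 7.37, 25.2 and 10.5 CPM to 534.4, 633.3 and 658.1 CPM.

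Monocyte and macrophage genes were also higher, and day 6 replicate 2 held the highest level of most. Of 38 tested members 31 were higher, 2 lower (Ly6c2 and Cd163) and 5 not called, with a median log2 fold change of 3.69. Without day 6 replicate 2 the counts were 31 higher and 3 lower and the median was 2.80. The sum over the list was 7076, 8491 and 9260 CPM in untreated cells and 8856, 18010 and 9364 CPM at day 6. Replicates 1 and 3 thus lay near the untreated range in sum, and replicate 2 above it. The sum is a poor guide to the other members, since Ly6c2, which fell, made up a large part of it in untreated cells. Ly6c2, the Ly6C antigen and the most abundant member per length in untreated cells, fell from 3413, 4548 and 4541 CPM to 1902, 2225 and 1781 CPM. Csf1r, the receptor for the macrophage growth factor M-CSF, rose from 58.4, 119.2 and 86.5 CPM to 283.6, 727 and 302.8 CPM (log2 fold change 2.32 ± 0.39, SE; edgeR adjusted p = 0.000332). Fcgr1, which binds monomeric IgG, rose from 0.993, 5.29 and 1.15 CPM to 114.9, 513.9 and 130.4 CPM. Ctss, cathepsin S, an antigen-processing protease, rose from 26.0, 55.0 and 31.0 CPM to 525.5, 1733 and 578.5 CPM. In each of the 3 genes replicate 2 was the highest library at day 6 and untreated replicate 2 the highest before, and the groups did not overlap. Cd14, the lipopolysaccharide co-receptor, stood at 36.3, 20.3 and 38.7 CPM against 9.22, 10.2 and 30.7 CPM and was not called. Without untreated replicate 3 it was called higher. Cd163, a scavenger receptor of tissue macrophages, fell 6.55-fold.

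Receptors for growth factors and for microbes were mostly higher. Of 36 colony-stimulating factor and cytokine receptor genes 25 were higher and 6 lower (among them Il3ra, Ifngr1, Tnfrsf1b, Kit and Il27ra), with a median log2 fold change of 1.08. Csf2ra, the alpha chain of the GM-CSF receptor, rose 9.02-fold from 38.2, 46.4 and 42.5 CPM to 399.6, 365.7 and 380.1 CPM. Il1rn, which blocks interleukin-1, rose 67.9-fold and the decoy receptor Il1r2 17.6-fold, the latter from 7.09, 6.96 and 6.18 CPM to 136.9, 97.6 and 120.7 CPM. Ifngr1, a chain of the interferon-gamma receptor, fell from 1114, 1041 and 1037 CPM to 348.5, 302.7 and 356.9 CPM. Of 25 Toll-like and Fc receptor genes 20 were higher and none lower (median log2 fold change 2.58). Tlr8, which senses RNA, rose 66.1-fold to 22.0, 54.0 and 26.2 CPM. Pirb, a paired immunoglobulin-like inhibitory receptor, rose from 2.84, 4.59 and 3.74 CPM to 223.9, 291.2 and 216.5 CPM, 65.5-fold (edgeR adjusted p = 2.79e-09). Clec4a2, an inhibitory C-type lectin, rose 263.2-fold to 612.3, 386.9 and 560.3 CPM. Pirb, Clec4a2 and Pilrb2 belong to families of close paralogs, between which reads may have been shared or lost, so their levels are uncertain.

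Interferon response genes rose broadly. Of 44 tested members 41 were higher, 1 lower (Gbp3) and 2 not called, with a median log2 fold change of 2.28. The list summed to 2096, 4261 and 2489 CPM in untreated cells and 13490, 19910 and 13140 CPM at day 6, with replicate 2 the highest of each group. Oas3, an enzyme that activates RNA decay on sensing double-stranded RNA, rose from 13.9, 66.0 and 22.0 CPM to 871.6, 1066 and 770.4 CPM, 26.6-fold (edgeR adjusted p = 1.08e-05). Ifit3 rose from 2.13, 10.3 and 2.44 CPM to 113.2, 469.8 and 110.1 CPM. Slfn5, another interferon-induced gene, rose 23.3-fold. All 7 tested MHC class II genes were higher (6 without day 6 replicate 2), from low levels. H2-Aa, an antigen-presenting chain, stood at 1.42, 3.34 and 1.15 CPM before and 20.5, 9.48 and 39.6 CPM at day 6, and here replicate 2 was the lowest. Of 18 MHC class I presentation genes 11 were higher and none lower, with a median of 0.48 that became -0.05 under library totals. Of 34 inflammatory mediators 26 were higher and 3 lower. Alox5, the enzyme that starts leukotriene synthesis, rose 26.1-fold to 627, 404.6 and 568.5 CPM and Tnf 8.74-fold to 27.1, 18.5 and 15.2 CPM, while the chemokine Ccl3 fell 6.30-fold.

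Transcription factors of granulocyte maturation moved in a split pattern. Of 58 tested myeloid transcription factors 31 were higher, 8 lower (Cebpa, Irf8, Runx2, Etv6, Tcf4, Vdr, Zeb2 and Hif1a) and 19 not called (median log2 fold change 0.55, and 0.05 under library totals). Cebpe, which drives secondary granule genes (gene ID 110794, chromosome 14, 54710363 to 54712174), rose from 72.5, 64.3 and 64.5 CPM to 644.9, 327.6 and 588.6 CPM, 7.76-fold (edgeR adjusted p = 1.95e-05). Cebpd rose 8.84-fold, from 18.6, 19.1 and 17.0 CPM to 183.8, 128.7 and 170 CPM. Cebpa, the factor of early granulocyte commitment, fell from 422.9, 392.7 and 601.4 CPM to 153.3, 188.2 and 160.1 CPM, and Cebpb was not called (54.9, 45.7 and 87.4 CPM against 59.5, 91.9 and 76.3 CPM). The C/EBP genes thus differed in direction. Irf8, needed for monocyte and dendritic cell fate, fell from 599, 559.6 and 973 CPM to 102.1, 234.7 and 99.6 CPM. Klf4, a monocyte factor, rose from 6.67, 5.85 and 16.8 CPM to 48.2, 121.5 and 51.5 CPM, and Irf5, which drives inflammatory genes, rose 16.7-fold. Replicate 2 was the highest day 6 library for Irf8, Klf4 and Irf5. Id2, an inhibitor of helix-loop-helix factors, rose 9.87-fold. Gfi1, a repressor needed for neutrophils, was not called, with 179.5, 177.8 and 171.7 CPM against 215.8, 99.3 and 198 CPM, and neither was Runx1.

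Of 38 tested genes listed as regulated by PU.1 in myeloid cells, 32 were higher and 3 were lower (Irf8, Mpo and Elane), with a median log2 fold change of 3.12. Most of these genes stand in other lists as well, so this count is not separate evidence.

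Genes of stem and progenitor cells fell. Of 25 tested members 15 were lower, 3 higher (Ly6a, Lmo2 and Erg) and 7 not called, with a median log2 fold change of -1.38. Without day 6 replicate 2 the counts were 17 lower and 2 higher, and Ly6a was no longer called. Adgrg1, an adhesion receptor of stem and leukemia-initiating cells (gene ID 14766, chromosome 8, 94974756 to 95014208), fell from 396.5, 268.7 and 447.4 CPM to 5.55, 6.43 and 6.25 CPM, 61.1-fold (log2 fold change -5.92 ± 0.22, SE; edgeR adjusted p = 2.79e-09). Cdk6, a kinase that keeps progenitors cycling, fell from 249, 216.9 and 245.8 CPM to 49.9, 35.0 and 56.8 CPM. Myb, which keeps progenitors immature, fell from 748, 727.3 and 679.1 CPM to 273, 185.6 and 287.6 CPM. The groups did not overlap in any of the 3. Kit, the stem cell factor receptor, fell 2.56-fold, from 458.5, 458.4 and 471.4 CPM to 248.2, 91.9 and 202.8 CPM (edgeR adjusted p = 0.00161), and replicate 2 was the lowest. Muc13 fell 19.3-fold and the RNA-binding protein gene Msi2 6.55-fold. Erg, an ETS factor of stem cells, rose 11.4-fold, from 5.39, 5.29 and 3.02 CPM to 76.3, 24.1 and 55.4 CPM. Cd34, often used to mark progenitors, stood at 5.81, 1.53 and 1.15 CPM in untreated cells and was not called. Hoxa9 had 0 counts in all 6 libraries and Meis1 had 1 count in all, in day 6 replicate 2, although this pair is high in many other myeloid leukemias. Flt3 was not called with all libraries, and without day 6 replicate 2 it was lower (log2 fold change -1.12, edgeR adjusted p = 0.0108). Its level was 26.2 CPM in that library against 2.77 and 1.56 CPM in the other day 6 libraries.

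The 15 largest rises included 5 stefin-type genes, and the 15 largest falls ranged over matrix, signalling and other genes. Stfa2, Stfa2l1, Stfa3, Cstdc4 and Csta3 encode stefin-type inhibitors of cysteine proteases and lie on chromosome 16 as close copies of each other, so reads may be shared between them. Stfa2 rose 520.8-fold, from 0.284, 1.81 and 0.144 CPM to 378.7, 621.2 and 165 CPM. Csta3 had no counts in untreated cells and 61.6, 21.7 and 2.93 CPM at day 6, which makes it at least 193.5-fold higher against a floor of 3 counts over the untreated group. The stefins differed between day 6 libraries, with replicate 3 the lowest in all 5. Ceacam10, a carcinoembryonic antigen family member, rose 421.8-fold to 165.5, 78.6 and 115 CPM from 6 counts in all untreated libraries, and Asprv1, a retroviral-like protease of skin and neutrophils, rose 251.1-fold to 61.6, 229 and 64.8 CPM. F11r, a junctional adhesion molecule, had 1 count in untreated cells and rose 315.6-fold (95% exact interval of the counts 60.91 to 13580).

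Among the falls, Igfbp7, a secreted binding protein of insulin-like growth factors (gene ID 29817, chromosome 5, 77349240 to 77408045), went from 136.4, 154.5 and 141.9 CPM to 2.99, 3.86 and 2.54 CPM, 46.1-fold (edgeR adjusted p = 9.69e-10). Cited4, a co-activator, fell from 220.1, 191.7 and 331.3 CPM to 4.91, 4.98 and 4.49 CPM. Serpinh1, the collagen chaperone HSP47, fell 243.4-fold from 35.5, 58.6 and 122.7 CPM to 0.213, 0.482 and 0.195 CPM, which is 5 counts in all. Day 6 levels were low in every library in these genes, while the untreated levels of Serpinh1 ranged widely. Col16a1, a minor collagen, fell 205.5-fold to 4 counts in all, and Eln, elastin, 453.9-fold with 1 count left at day 6 (95% exact interval 69.34 to 15360). Smoc2, Lama1 and Sdc1, which encode matrix or cell-surface proteoglycan proteins, fell 94.0-fold, 48.0-fold and 53.3-fold. Plch2, a phospholipase C, fell 145.4-fold from 109.2, 30.4 and 152.9 CPM.

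Cell cycle genes did not move as 1 block. Mitosis and spindle genes were higher: 43 of 50 rose and none fell (median log2 fold change 0.75), and without day 6 replicate 2 the count was 47. Under library totals 19 were higher and 5 lower, and the median was 0.21. DNA replication genes leaned the other way, with 22 of 50 lower, 2 higher (Rrm2 and Slbp) and a median of -0.23, and with 42 and 48 lower under upper-quartile scaling and library totals. Mki67, the Ki-67 antigen of cycling cells (gene ID 17345, chromosome 7, 135689784 to 135716450), rose from 650.5, 697 and 670.6 CPM to 1615, 1049 and 1793 CPM, 2.21-fold (log2 fold change 1.14 ± 0.18, SE; edgeR adjusted p = 0.000111). Kif23, a kinesin of the dividing cell's midbody, rose from 36.7, 42.2 and 31.2 CPM to 156.3, 81.0 and 141 CPM. For both genes replicate 2 was the lowest at day 6, closer to untreated cells. Mcm2, a subunit of the replicative helicase, fell from 219.9, 243.9 and 198 CPM to 143.1, 156.1 and 146.8 CPM (log2 fold change -0.57, edgeR adjusted p = 0.000195). Of 36 DNA repair genes 17 were lower and 5 higher (30 and 4 under library totals). Ung, which removes uracil from DNA, fell 4.10-fold and Parp1 3.05-fold.

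Several inhibitors of the cycle rose, Cdkn1a was not called and Myc fell. Of 42 G1 cyclins, kinases and inhibitors 25 were higher and 7 lower (median log2 fold change 0.66). Myc, which drives growth and ribosome production (gene ID 17869, chromosome 15, 61985341 to 61990361), fell from 324.7, 253.2 and 253 CPM to 26.0, 50.3 and 28.9 CPM, 7.90-fold (edgeR adjusted p = 2.38e-06). Its antagonist Mxd1, which binds the same partner and rises as granulocytes mature, went from 40.1, 47.9 and 52.3 CPM to 549.6, 448.9 and 574 CPM, 11.2-fold (edgeR adjusted p = 3.49e-09). The 2 genes crossed: in each untreated library Myc had more CPM than Mxd1, and in each day 6 library less; on the length-scaled means Myc went from 115.5 to 14.6 RPKM and Mxd1 from 10.03 to 112.4 RPKM. The kinase inhibitors Cdkn1b, Cdkn2c and Cdkn2d rose 2.09-fold, 1.81-fold and 3.13-fold. Cdkn2d (p19) went from 56.0, 65.8 and 88.9 CPM to 247.4, 188.5 and 224.3 CPM. Btg2, an antiproliferative gene, rose 14.2-fold to 149.3, 137.7 and 153.6 CPM, and Ccnd3, cyclin D3, 4.06-fold to 722.1, 494.2 and 655.2 CPM. Cdkn1a, the p53 target p21, was not called, with 30.4, 29.1 and 71.4 CPM against 24.5, 36.7 and 21.5 CPM. It was called lower without untreated replicate 1 or 2 and under both other scalings.

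Genes that build ribosomes fell together. All 50 tested ribosome biogenesis genes were lower, with a median log2 fold change of -1.33. Their sum fell from 6415, 7686 and 6096 CPM to 2115, 3168 and 2394 CPM. Gnl3, nucleostemin of the nucleolus, fell from 121, 127.1 and 117.5 CPM to 16.4, 29.4 and 23.04 CPM, 5.31-fold (edgeR adjusted p = 3.16e-07). Dkc1, the pseudouridine synthase dyskerin, fell 4.15-fold and Npm3, a nucleolar chaperone, 3.96-fold. Replicate 2 was the highest day 6 library for the sum and for each of the 3 genes. Of 69 cytosolic ribosomal protein genes 62 were lower and none higher (median -0.96). These have many processed copies in the genome, as does Gapdh, whose reads were few (2.87 to 8.32 CPM), so reads shared with copies may have been lost. Rplp1, a stalk protein, fell from 897.2, 858.6 and 917.6 CPM to 264.9, 436.4 and 308.1 CPM. Of 35 translation factors 29 were lower and 1 higher (Eif1, whose sign changes under library totals). Eef1a1, the elongation factor that carries tRNA, fell 2.14-fold.

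Mitochondrial and biosynthetic genes fell with them. Lower genes numbered 35 of 50 mitochondrial ribosomal proteins (none higher), 25 of 51 nuclear-encoded respiratory chain genes (2 higher) and 30 of 38 genes of the tricarboxylic acid cycle and mitochondrial import (2 higher), with medians of -0.48, -0.27 and -0.62. Hspd1, the mitochondrial chaperonin, fell from 226.2, 304.3 and 272.7 CPM to 59.7, 120.1 and 73.8 CPM. Of 29 genes of nucleotide and one-carbon synthesis 25 were lower and 2 higher (median -1.20). Cad, which starts pyrimidine synthesis, fell 3.82-fold, Odc1, which starts polyamine synthesis, 4.55-fold, and Srm, spermidine synthase, from 229.6, 282.7 and 249 CPM to 28.4, 64.9 and 33.0 CPM. Ada, adenosine deaminase, and Mthfd2, a mitochondrial folate enzyme, were the 2 that rose, 6.50-fold and 1.67-fold. Of 32 tRNA synthetase and amino acid response genes 21 were lower and 4 higher. Phgdh, the entry enzyme of serine synthesis (gene ID 236539, chromosome 3, 98313171 to 98339969), fell from 194, 219.4 and 208.2 CPM to 8.96, 33.6 and 11.3 CPM, 11.5-fold (edgeR adjusted p = 1.56e-05). Psat1 and Shmt2, further steps of the serine and glycine route, fell 3.09-fold and 2.90-fold. In all 3 serine genes the day 6 libraries lay below the untreated ones, with replicate 2 the highest at day 6.

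Lists of carbohydrate and lipid genes held calls in both directions, and the counts of the pentose phosphate and sterol lists lie near the shares of all genes (35.0% higher, 32.9% lower). Of 28 glycolysis and pyruvate genes 12 were higher and 7 lower, with a median of 0.22 that turned to -0.04 under upper-quartile scaling and -0.31 under library totals. Slc2a3, a high-affinity glucose transporter, rose from 21.6, 20.6 and 19.8 CPM to 675.6, 441 and 677.1 CPM, 28.9-fold (edgeR adjusted p = 6.56e-08). Pygl, which releases glucose from glycogen, rose 4.66-fold to 1877, 1224 and 1786 CPM, and Hk3, a hexokinase, 2.25-fold. Pfkm and the lactate carrier Slc16a1 fell 4.31-fold and 3.06-fold. Of 34 pentose phosphate and glutathione genes 13 were higher and 12 lower (8 and 19 under library totals). G6pdx, which supplies the NADPH that the oxidase consumes, rose from 276.4, 341.9 and 322.8 CPM to 1002, 799.2 and 976.1 CPM, and Gstm1, a glutathione transferase, fell 8.92-fold. Of 33 sterol and lipid genes 11 were higher and 11 lower, but 4 and 15 under upper-quartile scaling and 3 and 21 under library totals. Fasn, fatty acid synthase, fell 3.44-fold and Lpcat2, which makes platelet-activating factor, rose 106.8-fold to 167.4, 97.7 and 140.6 CPM. Abca1, a cholesterol exporter, was called higher (log2 fold change 2.24) only through day 6 replicate 2, with 7.04, 95.6 and 8.20 CPM, and without that library its log2 fold change was -0.07.

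Genes of chaperones leaned lower and genes of lysosomes higher. Of 26 cytosolic heat shock genes 19 were lower and 2 higher (Bag3 and Dnajb6, both of which change sign under library totals). The large falls of Hspa1a and Hspa1b rest on untreated replicate 3, with 6.24, 4.04 and 73.1 CPM and 5.81, 9.19 and 112 CPM in untreated cells, and at day 6 Hspa1a stood at 0.213, 1.61 and 0.391 CPM. Of 30 endoplasmic reticulum and unfolded protein genes 13 were lower and 4 higher (19 and 5 without day 6 replicate 2). Calr, calreticulin, fell 2.36-fold. Of 31 proteasome subunits 4 were higher and 4 lower, below the shares of all genes (35.0% higher, 32.9% lower). Under upper-quartile scaling and library totals none were higher and 9 or 25 lower. Without day 6 replicate 2 the counts under TMM scaling became 3 higher and 16 lower. That library lay above the other day 6 libraries with a median log2 ratio of 0.50 over the list. Among lysosome genes 33 of 46 were higher and 4 lower, with a median of 0.87. Asah1, acid ceramidase, rose 3.79-fold to 213, 274.4 and 202.8 CPM, and Tfe3, a regulator of lysosome genes, 3.48-fold, while Gla and Gaa, enzymes of glycolipid and glycogen breakdown, fell 3.54-fold and 2.23-fold. Of 34 autophagy genes 17 were higher and 8 lower, with a median of 0.24 that was -0.02 under upper-quartile scaling and -0.29 under library totals.

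Anti-apoptotic members of the BCL2 family moved in opposite directions. Of 31 cell death genes 19 were higher and 3 lower (median log2 fold change 0.61), and under library totals 12 and 11. Bcl2 (gene ID 12043, chromosome 1, 106538176 to 106714290) fell from 53.9, 50.3 and 48.9 CPM to 4.27, 9.16 and 5.66 CPM, 8.02-fold (edgeR adjusted p = 1.62e-06). Mcl1, the family member that neutrophils depend on, rose from 310.4, 321.7 and 370.7 CPM to 882.7, 1133 and 984.7 CPM, 2.99-fold (edgeR adjusted p = 2.33e-07). The groups did not overlap for either gene. Bbc3, the p53 target PUMA, fell 1.96-fold. Of 22 p53 target genes 10 were higher and 4 lower. The list median was 0.14, and -0.10 and -0.36 under upper-quartile scaling and library totals. Without day 6 replicate 2 that median was -0.006. Mdm2 rose from 55.2, 58.3 and 60.3 CPM to 148.9, 120.7 and 141 CPM, and Trp53inp1 rose 8.66-fold, although the labels give these cells as lacking p53.

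Genes of the nuclear envelope and chromatin held calls in both directions, as did all tested genes (35.0% higher, 32.9% lower). Of 35 nuclear envelope and lamina genes 19 were lower and 9 higher. The linker genes Syne1 and Sun2, which tie the nucleus to the cytoskeleton, rose. Syne1, nesprin-1, went from 97, 98.3 and 83.5 CPM to 1792, 885.9 and 1968 CPM, 16.7-fold (edgeR adjusted p = 2.81e-06), and Sun2 from 642, 543.9 and 581.4 CPM to 2359, 1126 and 2345 CPM. Lbr, the lamin B receptor needed for the lobed neutrophil nucleus, rose 1.74-fold from 411.9, 396.3 and 475.5 CPM to 757.3, 656.3 and 813.7 CPM. Lmna was not called, with 7.80, 4.04 and 26.2 CPM against 4.27, 9.16 and 3.12 CPM, and Lmnb1 rose 1.28-fold with overlapping groups and a sign that changes under library totals. Of 54 chromatin regulators 25 were higher and 9 lower, with a median of 0.27 that became -0.24 under library totals. Kdm6b and Kdm7a, histone demethylases, rose 5.22-fold and 7.41-fold, and Dnmt3b, a DNA methyltransferase, fell 3.65-fold. Of 50 splicing factors 28 were lower and 7 higher. Of 37 MAP kinase and cytokine feedback genes 19 were higher and 8 lower, with Dusp6 up 3.51-fold and Dusp2 down 8.24-fold; the list median of 0.29 became -0.25 under library totals. Of 29 iron and heme genes 13 were higher and 7 lower (median 0.14, but -0.10 under upper-quartile scaling and -0.37 under library totals), and the iron exporter Slc40a1 rose from 79.7, 84.1 and 56.0 CPM to 420.5, 213 and 417.8 CPM.

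Late granule and neutrophil genes were higher at day 6 than at day 4. Calls of monocyte genes, in both directions, lay near the shares of all genes, and these genes differed between day 6 libraries. Against day 4 cells, 2851 genes (23.6%) were higher at day 6 and 2726 (22.6%) lower. This comparison shares its day 6 libraries with the one above, so values are set side by side and no overlap is counted. Secondary and tertiary granule genes were higher at day 6 than at day 4 in 26 of 27 cases (median log2 difference 3.89) and mature neutrophil genes in 30 of 40 (2 lower, median 2.96). Ltf stood at a mean of 115 CPM at day 4, and its log2 difference from day 4 to day 6 was 6.35, compared with 6.93 from untreated cells. Fpr2 had a mean of 2.22 CPM at day 4 (log2 difference 6.77), near its untreated mean of 2.44 CPM. Cxcr2 had 9.51 CPM (4.91) and Mxd1 66.4 CPM (2.98), above their untreated means of 6.55 and 46.8 CPM. Of 38 tested monocyte and macrophage genes 7 were higher and 9 lower at day 6 than at day 4, with a median of -0.30. These counts lie near the shares of all genes (23.6% higher, 22.6% lower). How far they rest on day 6 replicate 2 was not tested. In Csf1r, Fcgr1 and Ctss, day 6 replicates 1 and 3 lay below all day 4 libraries (698.5 to 913.3, 224.3 to 269.7 and 961.4 to 1252 CPM). Replicate 2 lay within that range for Csf1r and above it for Fcgr1 and Ctss. C1qa went the other way, with 10.5 and 9.18 CPM in replicates 1 and 3 and a day 4 mean of 1.67 CPM. Klf4 had a day 4 mean of 212 CPM and was lower at day 6 (log2 difference -1.51, edgeR adjusted p = 0.00935). Csf1r had a day 4 mean of 816 CPM, and its difference to day 6 was not called (-0.90, edgeR adjusted p = 0.0675). Lpl, lipoprotein lipase, had 597 CPM at day 4 and 123.5, 185 and 156.2 CPM at day 6, a fall by 1.94 on the log2 scale. Lyz2 and Actb had day 4 means of 12400 and 4884 CPM. Ribosome biogenesis genes were lower at day 6 than at day 4 in 44 of 50 cases. Mitosis genes were higher than at day 4 in 11 of 50 cases, near the share of all genes (23.6%), and none were lower. Eosinophil genes fell from day 4 to day 6 in 5 of 8 cases (median -2.52). Prg2, eosinophil major basic protein, had a day 4 mean of 365 CPM and 48.0, 16.4 and 35.3 CPM at day 6, and was not called against untreated cells (10.6, 21.3 and 15.8 CPM). Siglecf, a receptor of eosinophils, was higher at day 6 than in untreated cells in all 3 libraries, with 1.42, 1.53 and 0.718 CPM before and 21.8, 6.27 and 16.0 CPM at day 6. Alox15, an eosinophil lipoxygenase, was 16.3-fold higher than in untreated cells, a call that was lost without day 6 replicate 1.

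**Figure D3:**
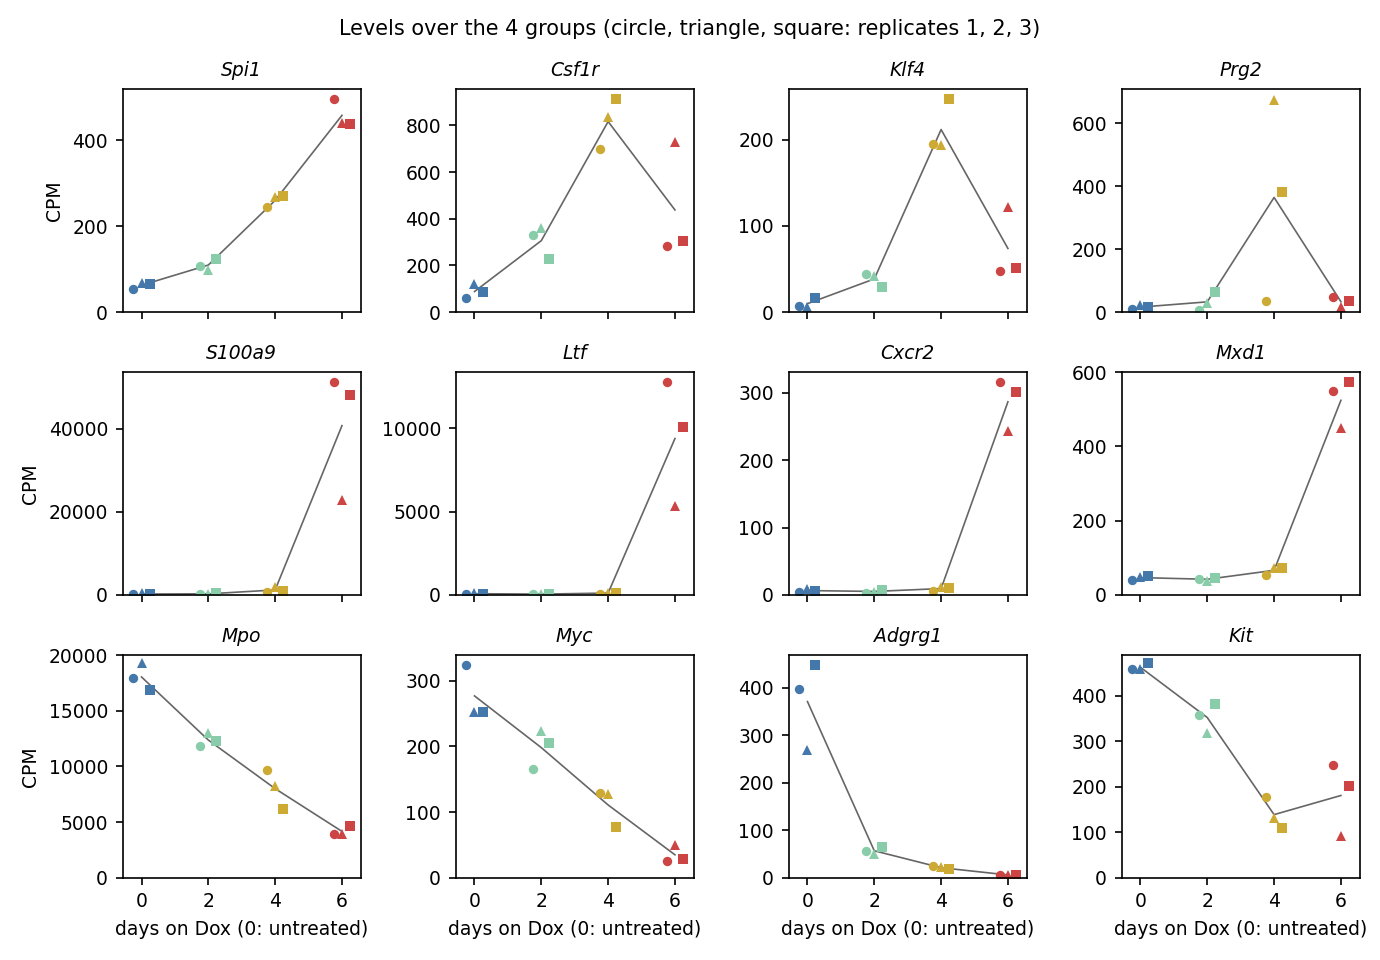
TMM-normalised CPM of 12 genes in every library of the 4 groups against days on Dox (0 is untreated; circle, triangle and square for replicates 1, 2 and 3; the line joins group means, linear axes from 0). S100a9, Ltf, Cxcr2 and Mxd1 are far higher at day 6 than at day 4, Csf1r, Klf4 and Prg2 have their highest mean at day 4, and Mpo, Myc and Adgrg1 fall at each step.

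Lymphoid, platelet and mast cell markers were low in both groups, while some dendritic and stromal markers were not. Erythroid genes summed to 132 to 225 CPM in untreated cells and 67.4 to 178 CPM at day 6, nearly all of it the transferrin receptor Tfrc, which dividing cells of any kind express. Megakaryocyte and platelet genes summed to 6.03 to 17.0 and 6.64 to 10.5 CPM, with 1 of 3 tested members higher and 1 lower. B cell genes summed to 14.2 to 23.7 CPM and 9.81 to 34.9 CPM, all 3 tested members were lower, and Ms4a1 (CD20) had no counts in any of the 6 libraries. T and NK cell genes summed to 34.3 to 55.0 and 62.7 to 87.7 CPM, with 3 of 6 tested members higher and 1 lower (5 and 1 without day 6 replicate 2). Basophil and mast cell genes summed to 19.4 to 38.7 and 6.27 to 9.81 CPM, with 2 of 4 tested members lower and 1 higher. Dendritic cell genes summed to 233 to 312.4 and 219 to 438 CPM, mostly Bst2 and Tcf4, which are not specific to those cells. Of 5 tested members 3 were higher and 1 lower (2 and 2 without day 6 replicate 2). Endothelial and stromal genes summed to 524 to 691 CPM in untreated cells and 171 to 232 CPM at day 6, with 6 of 8 tested members lower and 2 higher. Among the lower ones were Pdgfrb, a growth factor receptor of stroma, at 213, 142.5 and 232.3 CPM and then 5.33, 7.72 and 3.91 CPM, and Cxcl12, the ligand of Cxcr4, which fell 12.4-fold. The stromal and endothelial genes Tek, Emcn, Col3a1 and Sp7 had no counts in any of the 6 libraries. The part of other cells in the results above was not tested.

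**Figure D4:**
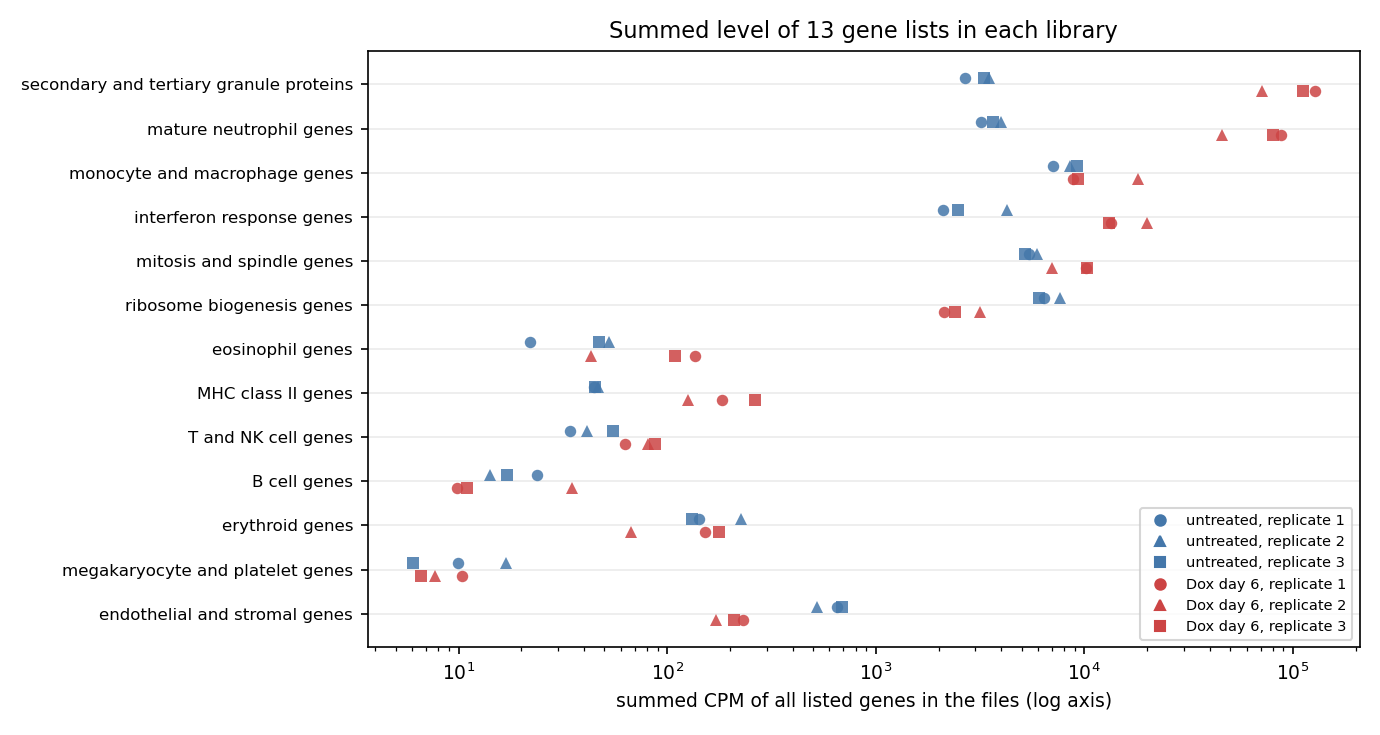
Summed TMM-normalised CPM of all genes of 13 lists in each library, on a log axis (blue untreated, red day 6; circle, triangle and square for replicates 1, 2 and 3). The granule and neutrophil sums at the top rise far above the untreated points, ribosome biogenesis falls, and the lymphoid, platelet and erythroid sums at the bottom overlap or lie close between groups, with none above 225 CPM.

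Day 6 replicate 2 differed from replicates 1 and 3 in monocyte, interferon, sterol and lymphoid genes. The genes in this paragraph were chosen after their values were seen, as those farthest apart in that library and the T-lineage markers with at least 2 CPM in it, and they get no test. Monocyte and macrophage genes were higher there than in the mean of the other day 6 libraries with a median log2 ratio of 1.28 and interferon genes with 0.57. Secondary granule genes were lower with -0.51, mitosis genes with -0.52 (48 of 50 lower), eosinophil genes with -1.42 and MHC class II genes with -1.37. The complement genes C1qa, C1qb and C1qc of tissue macrophages stood at 10.5, 78.0 and 9.18 CPM, 4.27, 52.6 and 7.03 CPM, and 10.02, 89.7 and 11.5 CPM in day 6 replicates 1, 2 and 3. Replicate 2 exceeded the other day 6 libraries for all 3 genes, and in untreated cells none exceeded 3.62 CPM. Of 23 T and NK cell markers 10 reached 2 CPM in replicate 2 and 6 did so in the mean of replicates 1 and 3. Lck, a kinase of the T cell receptor, stood at 1.07, 20.7 and 1.17 CPM, Cd8a at 0.640, 11.4 and 0.195 CPM and Cd3g at 0, 6.43 and 0.195 CPM. Rag1, the recombinase of developing lymphocytes, stood at 1.92, 23.6 and 1.76 CPM and Rag2 at 0.213, 2.25 and 0.586 CPM. The names under which all 12 libraries were deposited carry Rag1-/-, and the labels do not say whether that is the genotype of the cells or of the recipients. Lck, Cd8a, Cd3g and the recombinase genes were highest in replicate 2, as were Trbc1, Cd8b1, Cd3d and Cd3e. Of the other markers that reached 2 CPM there, Bcl11b and Cd4 differed less (log2 ratios 0.91 and 0.73). Cd28 was lowest there, with 14.5, 5.14 and 16.8 CPM. Gzma, the cytotoxic protease granzyme A, was also lowest there and did not reach 2 CPM, with 15.8, 0.804 and 23.4 CPM. The median log2 ratio of the 6 tested T and NK genes, which hold few of the markers that reached 2 CPM, was -2.39. Sterol synthesis genes were lower in replicate 2, with Sqle at 36.5, 6.75 and 26.9 CPM. Fcnb, ficolin-B of neutrophil granules, stood at 1180, 245.4 and 1200 CPM. Spi1 itself did not set replicate 2 apart (log2 ratio -0.09). Whether other cells in that library had a part in these differences was not tested.

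**Figure D5:**
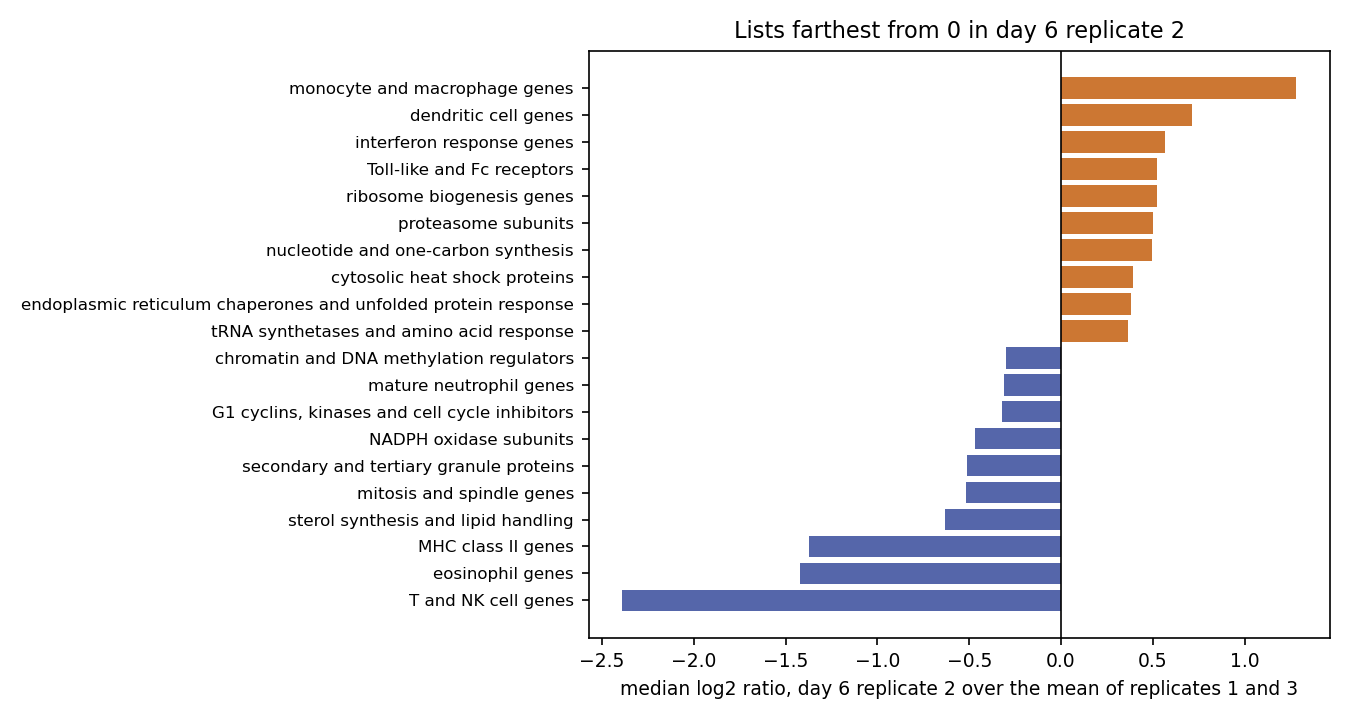
Median log2 ratio of day 6 replicate 2 over the mean of day 6 replicates 1 and 3 for the tested genes of the 10 lists with the highest and the 10 with the lowest value (bars from 0; orange higher, blue lower in replicate 2). Monocyte and macrophage genes reach 1.28, and T and NK cell, eosinophil and MHC class II genes lie at -2.39, -1.42 and -1.37.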

How the data were processed

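RNA was read by bulk sequencing from sorted bone marrow cells, and 6 of 12 libraries (3 untreated, 3 at day 6) are compared here. Each deposited file gives a read count and a gene length for 27179 Entrez genes, which the authors left unnormalised. Per the submitters' processing notes, mm10 was the build and the tools included featureCounts, limma 3.22.0, edgeR 3.8.2 and CASAVA 1.8.2, with no roles stated. Which aligner was used, and whether strand was counted, is not given in the sources used here, so antisense or overlapping genes may share reads. RefSeq GRCm38 named 25275 genes and GENCODE 18, and the 1886 left held 0.487% to 1.06% of a library's counts.

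All tests ran with edgeR 4.0.16 (R 4.3.3). Genes kept by filterByExpr (12057) were scaled by TMM, and all 12 libraries were fitted by group with glmQLFit (robust, 8 residual degrees of freedom; biological coefficient of variation 14.3%), tested with glmQLFTest and adjusted by Benjamini-Hochberg over all genes at 0.05. SE is that of the fit, with 3 libraries a group. The procedure was tested on simulated data in which far fewer genes changed than were called here. The choice of scaling was not tested that way. Alternatives were DESeq2 1.42.0, limma 3.58.1 (voom), other scalings and filters, glmTreat at 1.5-fold, a fit of the 6 libraries, a replicate block, and each library left out.

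The comparison and the 52 gene lists were chosen with earlier results of these data known. The naming rule took a set of maturation and cell cycle genes, the 15 largest rises and falls of at least 10 CPM without overlap, the 10 most abundant per length in each direction, per list up to 4 genes that moved the way most did and 2 that moved against them, 6 rises and 6 falls from day 4, and markers of other cells. It gave 316 genes; a part of them is named in the text. Other list members appear only to say which genes a count or a zero refers to, and genes of day 6 replicate 2 were chosen from its values.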

Additional observations from a re-analysis of the deposited data

How the results depend on the processing

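The direction and call of Spi1 and Trp53 held under all 17 alternatives. Counts of higher and lower genes (4224 and 3967) moved by more than 1.5 times with glmTreat at 1.5-fold, to 2362 and 2021, and with library totals, to 2283 and 6764; with library totals the at least 2-fold counts (2032 and 1837) became 1231 and 3484. Leaving out each library in turn gave 3960 to 4416 higher and 3663 to 4237 lower genes, 1934 to 2167 and 1713 to 2155 of at least 2-fold, and log2 fold changes of 2.78 to 2.93 for Spi1 and -1.51 to -1.36 for Trp53. The highest counts were those without day 6 replicate 2. With the replicate block the counts were 4144 and 3922 and 5 named genes lost their call. The titles call the replicates technical, so the replicate number was not a block in the main fit. Residuals of same-numbered libraries correlated by 0.12, 0.03 and -0.03, against -0.09 to 0.04 for libraries of unlike number. Named genes that reversed without day 6 replicate 2 were Abca1 (-0.0656; 2.24 with all libraries) and Flt3 (-1.12); leaving out each library in turn they ranged from -0.0656 to 2.72 and from -1.12 to 1.67. With library totals, Atp5h (-0.28), Bag3 (-0.13), Dlst (-0.21), Dnajb6 (-0.0137), Edem1 (-0.0889), Eif1 (-0.18), Lmnb1 (-0.17), Luc7l2 (-0.0802), Ndufa1 (-0.11), Psma1 (-0.0331), Psmc2 (-0.16), Psmd13 (-0.15) and Psmd4 (-0.19) reversed, as did Atp5h with upper-quartile scaling (-0.0189); the cause was not tested. Levels below about 0.5 CPM in a library rest on at most 3 counts, so folds against them are imprecise. At day 6 some levels above 0.5 CPM do so too, since the effective library sizes after TMM scaling were smaller there.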
